A study of Sus scrofa with 6 samples.

Results

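The genes described here are 6 that build or organise the tight junction of epithelial cells: the claudins CLDN3 and CLDN4, occludin (OCLN), the junctional adhesion molecule F11R, the scaffold TJP1 and the polarity protein CRB3. They were chosen by name, and all 6 were found among the 10915 genes that had values in the deposited table. CLDN3, CLDN4, F11R and CRB3 were matched in the table's gene column. OCLN and TJP1 carried only an identifier there and were matched through the reference gene table.

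RNA was sequenced from primary cultures of porcine uterine epithelial cells at passage 3, with 3 libraries in each of 2 groups. The exosome group was given 10 µg per well of exosomes for 48 h. These are membrane vesicles, here precipitated from the sperm-rich fraction of boar seminal fluid with a commercial reagent. The control group was not given exosomes, and the sources used here do not say whether it received the carrier buffer. The cells came from the uteri of slaughtered pigs, and no label says whether libraries of a group were separate animals or separate wells. The p-values below therefore rest only on how these libraries vary, which may be technical variation.

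Tight junctions are the uppermost contacts between neighbouring epithelial cells and limit what passes between them. Claudins form the strands and decide which ions cross, occludin and F11R sit in the same membrane, and TJP1 (ZO-1) ties them to the actin cytoskeleton. CRB3 is a small apical membrane protein of the Crumbs complex, which sets where the apical surface ends and the junction begins. In the uterus this barrier separates the lumen, where semen and later the embryo are found, from the tissue beneath.

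Values were read as FPKM, fragments scaled by transcript length and by library size, so levels can be compared between genes. The sums of FPKM ranged from 721273 to 732922 in the control libraries and from 690258 to 711250 in the exosome libraries. Every exosome sum lay below every control sum, and comparisons between libraries carry that difference. The sequencing depth is unknown, and no counting interval can be given. The culture label was checked against markers. The 4 matched epithelial markers (EPCAM, KRT8, KRT18 and KRT19) summed to 7725 to 7990 FPKM in the control libraries and 7036 to 7679 in the exosome libraries. The 5 matched stromal markers summed to 2788 to 3042 and to 2274 to 2494 FPKM, most of it THY1 (listed as CD90), with control and exosome means of 2328 and 1849. VIM had control and exosome means of 557 and 505 FPKM, and COL1A2 of 50.9 and 47.5. COL1A1 varied widely within both groups, from 2.48 to 30.0 FPKM in the control libraries and from 0.887 to 20.4 in the exosome libraries. The matched leukocyte markers CD68 and CD14 summed to 8.74 to 10.7 and to 7.58 to 10.6 FPKM, and KDR, an endothelial marker, had group means of 1.58 and 1.07. TAGLN, the matched smooth muscle marker, had means of 133 and 104 FPKM. No row was matched for CDH1 or KRT7 among the epithelial markers, nor for PTPRC, PECAM1, DCN, LUM or DES. In such bulk libraries, fewer cells of a type and less RNA per cell cannot be told apart. The part of other cell types in the results below was not tested.

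All 6 genes were well expressed, and their order of level was the same in all 6 libraries. CLDN4 stood highest, with a mean over the libraries of 920.3 FPKM, above 98.9% of the genes tested. CLDN3 followed at 433 FPKM, F11R at 204, OCLN at 124, CRB3 at 82.4 and TJP1 at 59.3, the last still above 83.3% of the genes tested. The level ranges of neighbours in this order did not overlap. The closest pair was CRB3 and TJP1, with CRB3 1.08 to 1.64 times higher within a library. CLDN4 was 1.92 to 2.31 times CLDN3, and CLDN3 1.61 to 2.59 times F11R.

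**Figure D1:**
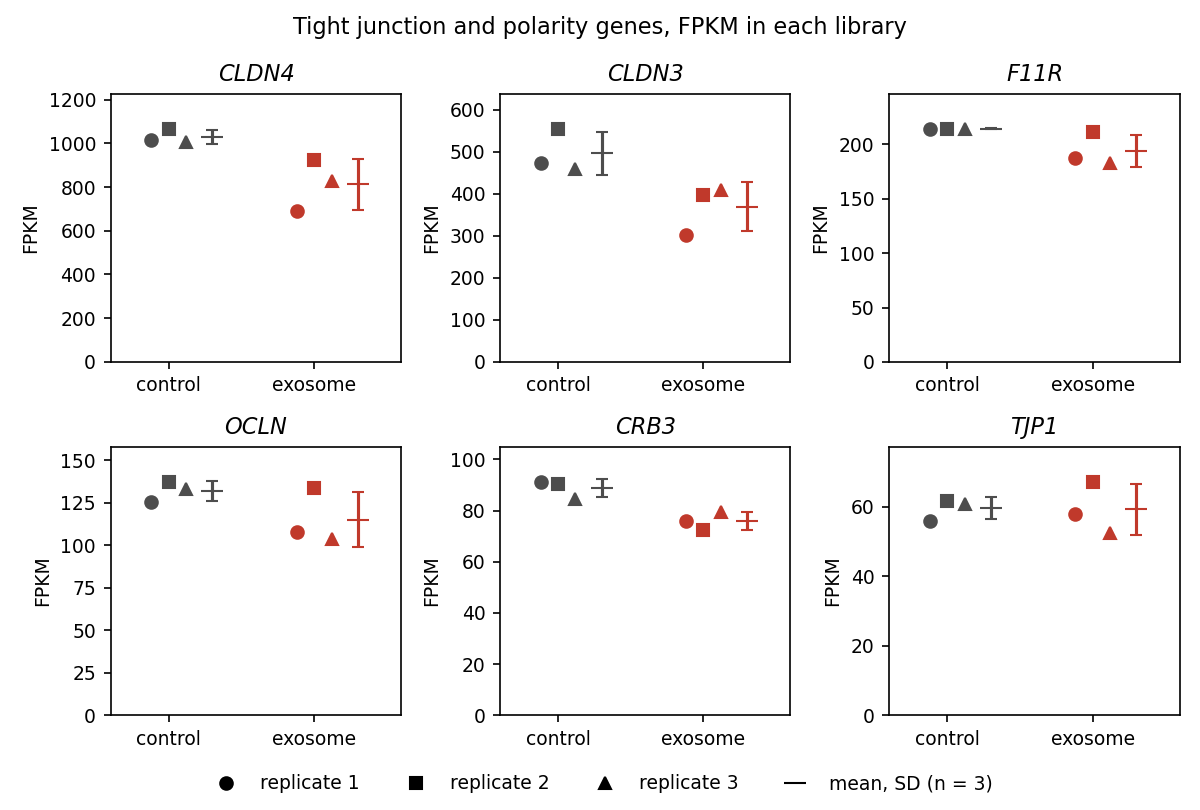
FPKM (vertical axes, from 0, a separate scale for each gene) of the 6 genes in the control and exosome libraries. Symbols mark the replicate and bars the mean and SD of 3 libraries. In CLDN4, CLDN3, F11R and CRB3 every exosome library lies below every control library, while in OCLN and TJP1 the groups overlap.

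The exosome libraries were compared with the controls to ask how transcripts of the barrier differ after 48 h with seminal vesicles. In FPKM, the claudin, F11R and CRB3 transcripts were lower in all 3 exosome libraries than in any control library. Their group means ran from 0.905 (F11R) down to 0.745 (CLDN3) times the control mean, while TJP1 had nearly equal means. None of the 6 passed at an adjusted p of 0.05 over all 10846 genes tested in limma, and neither did any other gene (0% of all genes). At an unadjusted p under 0.05, 4 of the 6 were lower and none was higher, where 12.6% of all genes tested reached it, 7.50% lower and 5.06% higher. In FPKM, the exosome libraries lay entirely below the control libraries in 4 of the 6, against 10.4% of all genes tested (18.7% did not overlap in either direction). Among the 1806 genes with a mean at least that of TJP1, 16.2% lay entirely below and 13.6% were lower at an unadjusted p under 0.05, so both shares were higher among abundant genes. The median log2 change of the 6 was -0.21, beside -0.0023 for all genes tested and -0.02 for those 1806. These counts describe genes chosen with earlier results known and are not a test of the group.

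The 2 claudins, which seal the space between cells, showed the largest differences of the 6. CLDN4 was at 1013, 1068 and 1006 FPKM in control replicates 1, 2 and 3 and at 688, 922 and 826 in exosome replicates 1, 2 and 3. The groups did not overlap, and exosome replicate 1 was the lowest library. Its means were 1029 ± 33.9 and 812 ± 117 FPKM (SD, n = 3 per group), a ratio of 0.789. The log2 change was -0.35 with an SE of 0.10, a 95% interval from -0.58 to -0.13 and a limma adjusted p of 0.280. CLDN4 lies on chromosome 3 at 11039711 to 11053930 (RefSeq, Sscrofa11.1).

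CLDN3 was at 475, 556 and 460.0 FPKM in control replicates 1, 2 and 3 and at 303, 398 and 409 in exosome replicates 1, 2 and 3. Again no exosome library reached the lowest control library, and replicate 1 was the lowest of the exosome group. The means were 497 ± 51.6 and 370.0 ± 58.6 FPKM (SD, n = 3 per group), a ratio of 0.745. The log2 change was -0.43 with an SE of 0.12, a 95% interval from -0.71 to -0.15 and a limma adjusted p of 0.284. Both claudin differences leaned on exosome replicate 1: without it the log2 change was -0.24 for CLDN4 and -0.29 for CLDN3.

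The identity of the CLDN3 row is uncertain. The table names its identifier (ENSSSCG00000021536) CLDN3, whereas the reference gene table lists that identifier as CLDN9 and gives CLDN3 another identifier, which has 0 rows here. In RefSeq, CLDN3 lies on chromosome 3 at 11019073 to 11020102, with 19608 bases and no gene start between it and CLDN4. CLDN9 lies on the same chromosome at 39172731 to 39181827, 99 bases from CLDN6. Across the 6 libraries the row had a Pearson r of 0.95 with CLDN4 and 0.68 with CLDN6, and of 0.86 and 0.43 after each group's mean was taken away. These are descriptions over 6 libraries and do not settle which gene the row holds.

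F11R (JAM-A), an immunoglobulin-type adhesion protein of the junction, was the steadiest of the 6 in the control group. It was at 214.5, 214.7 and 213.9 FPKM in control replicates 1, 2 and 3 and at 187.7, 211.2 and 183.1 in exosome replicates 1, 2 and 3. The groups did not overlap in FPKM, but exosome replicate 2 lay just under the controls. The FPKM sum was 708280 in exosome replicate 2 and 721273 to 732922 in the controls. As a share of these sums, F11R in exosome replicate 2 lay above every control library, so the groups overlapped on that scale. The means were 214 ± 0.432 and 194 ± 15.1 FPKM (SD, n = 3 per group), a ratio of 0.905. The log2 change was -0.15 with an SE of 0.06, a 95% interval from -0.28 to -0.01 and a limma adjusted p of 0.378. F11R lies on chromosome 4 at 89425101 to 89447889.

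OCLN encodes occludin, a membrane protein that crosses the membrane several times and stabilises the claudin strands. It was at 126, 137 and 133 FPKM in control replicates 1, 2 and 3 and at 108, 134 and 104 in exosome replicates 1, 2 and 3. Exosome replicates 1 and 3 lay below every control library, and replicate 2 lay inside the control range. The means were 132 ± 5.91 and 115 ± 16.3 FPKM (SD, n = 3 per group), a ratio of 0.871. The log2 change was -0.21 with an SE of 0.09, a 95% interval from -0.42 to 0.01 and a limma adjusted p of 0.415. OCLN lies on chromosome 16 at 47600175 to 47652435.

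TJP1, the cytoplasmic scaffold, differed least. It was at 55.8, 61.7 and 60.9 FPKM in control replicates 1, 2 and 3 and at 58.0, 67.1 and 52.3 in exosome replicates 1, 2 and 3. The highest and the lowest of the 6 libraries were both exosome libraries. The means were 59.4 ± 3.16 and 59.1 ± 7.45 FPKM (SD, n = 3 per group). The log2 change was -0.01 with an SE of 0.09 and a limma adjusted p of 0.970, and its 95% interval, from -0.22 to 0.20, also covers differences as large as that of OCLN. TJP1 lies on chromosome 1 at 144930387 to 145195857.

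CRB3, the polarity protein, had the smallest spread of the 6 within the exosome group. It was at 91.3, 90.4 and 84.7 FPKM in control replicates 1, 2 and 3 and at 75.9, 72.4 and 79.5 in exosome replicates 1, 2 and 3. The groups did not overlap, and here exosome replicate 2 was the lowest library. The means were 88.8 ± 3.57 and 75.9 ± 3.57 FPKM (SD, n = 3 per group), a ratio of 0.855. The log2 change was -0.22 with an SE of 0.05, a 95% interval from -0.35 to -0.10 and a limma adjusted p of 0.234, the smallest of the 6. CRB3 is placed by RefSeq on chromosome 2 at 72618059 to 72623266. The reference gene table does not hold the identifier that the row carries (ENSSSCG00000013547), so the match rests on the table's own symbol.

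**Figure D2:**
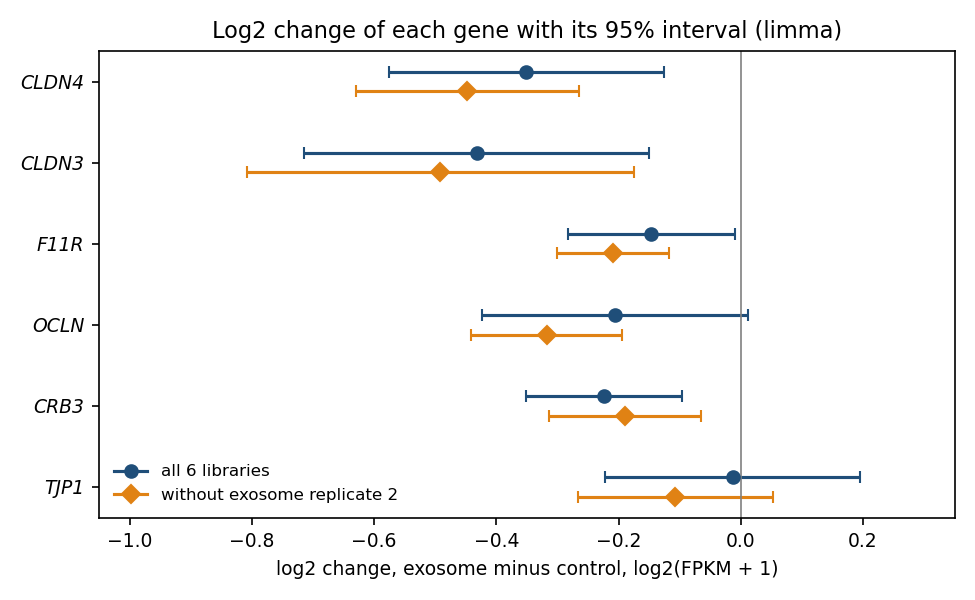
Log2 change on the log2(FPKM + 1) scale (horizontal axis, exosome minus control) of each gene with its 95% interval from limma, over all 6 libraries (circles) and without exosome replicate 2 (diamonds). Over all libraries the values run from -0.43 for CLDN3 to -0.01 for TJP1, and the intervals of OCLN and TJP1 reach 0.

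Exosome replicate 2 set the calls of 3 genes. Without it, CLDN4 (log2 change -0.45, adjusted p = 0.0377), OCLN (-0.32, 0.0341) and F11R (-0.21, 0.0438) passed over all genes tested in limma, where 2.74% of all genes passed and 1.88% passed as lower. CLDN3 (log2 change -0.49, adjusted p = 0.102) and CRB3 (-0.19, adjusted p = 0.104) did not pass in limma, and TJP1 was at -0.11 (adjusted p = 0.396). Among the markers of other cell types, TAGLN (log2 change -0.63, adjusted p = 0.0160) and THY1, listed as CD90 (-0.35, 0.0280), also passed in limma without that library, TAGLN by more than any of the 6 genes. Over all 6 libraries THY1 was lower in every exosome library than in any control library (log2 change -0.33, limma adjusted p = 0.134). That adjusted p was smaller than for any of the 6 genes. The part of these 2 markers in the result was not tested. Without replicate 2 of both groups, 0.535% of all genes and none of the 6 passed. With any single library other than exosome replicate 2 left out, 0 of the 6 and at most 1 of all genes passed. The calls of CLDN4, OCLN and F11R therefore rest on that 1 omission. Over all genes tested, the SD of log2 ratios was 0.231, 0.203 and 0.201 between exosome replicate 2 and control replicates 1, 2 and 3. It was 0.244 and 0.251 between exosome replicate 2 and exosome replicates 1 and 3, and 0.222 between exosome replicates 1 and 3.

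The 6 genes did not follow 1 common pattern within the exosome group. CLDN4, OCLN, F11R and TJP1 were highest there in replicate 2, CRB3 was lowest in replicate 2, and the claudins were lowest in replicate 1. After the group means were taken away, OCLN had an r of 0.95 with F11R and 0.96 with TJP1, and F11R had 0.89 with TJP1. CRB3 ran the other way, at -0.72 with OCLN, -0.69 with F11R and -0.82 with TJP1. CLDN3 and CLDN4 had an r of 0.86, and CLDN3 and TJP1 one of 0.11. These r values are over 6 libraries that share their scaling, and are given as a description. All 6 genes had a larger SD of log2 values in the exosome than in the control group, as did 66.7% of all genes tested.

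**Figure D3:**
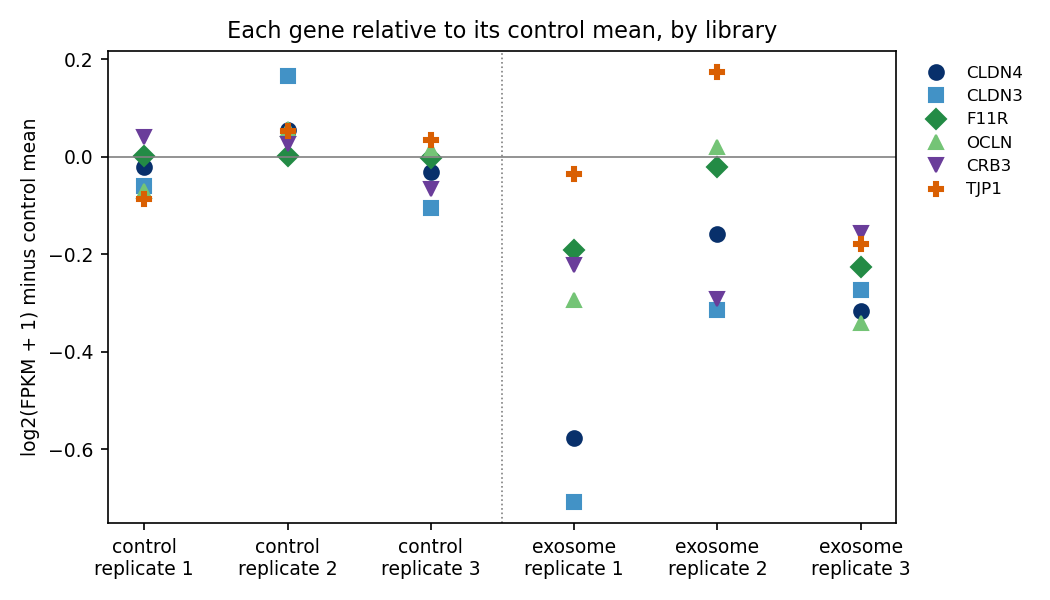
Log2(FPKM + 1) of each gene minus its control mean (vertical axis) in each of the 6 libraries (horizontal axis), 1 symbol per gene. In exosome replicate 1 CLDN3 and CLDN4 lie at -0.71 and -0.58, apart from the other genes, and in exosome replicate 2 TJP1 lies at 0.17 and CRB3 at -0.29.

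Ratios within a library compare the genes free of its scaling. CLDN4 was 18.1, 17.3 and 16.5 times TJP1 in control replicates 1, 2 and 3 and 11.9, 13.7 and 15.8 times in exosome replicates 1, 2 and 3, with no overlap. The OCLN to TJP1 ratio was 2.25, 2.23 and 2.19 in the controls and 1.86, 1.99 and 1.99 after exosomes, also with no overlap. This ratio was steadier within groups than OCLN itself, and in exosome replicate 2 it lay with the other exosome libraries. The CLDN3 to CLDN4 ratio overlapped, at 0.482 ± 0.0337 and 0.456 ± 0.0347 (SD, n = 3 per group). The CLDN3 to TJP1 ratio overlapped too, at 8.50, 9.01 and 7.56 in the controls and 5.22, 5.93 and 7.82 after exosomes. The ratios of F11R to TJP1 and to OCLN, of CRB3 to TJP1 and to OCLN, and of either claudin to OCLN overlapped as well. The share of all genes whose ratio to TJP1 does not overlap was not computed, so the ratios are a description only. The claudins made up 75.5% ± 0.746 of the summed FPKM of the 6 genes in the controls and 72.5% ± 2.50 after exosomes. That sum was 2020 ± 93.4 and 1626 ± 194 FPKM (SD, n = 3 per group).

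Relative to the mean log2 level of the 4 epithelial markers in the same library, CLDN4 was at -0.48 ± 0.06 in the controls and -0.77 ± 0.21 after exosomes. CLDN3 was at -1.53 ± 0.15 and -1.90 ± 0.21, and CRB3 at -4.00 ± 0.04 and -4.16 ± 0.04 (SD, n = 3 per group). The groups did not overlap in these 3 genes on that scale, and they overlapped for OCLN, F11R and TJP1. The share of all genes without overlap on that scale was not computed, so this is a description only. The median log2 change of the epithelial markers themselves was -0.08, and also -0.08 after centring on the median gene. It was 0.01 with quantile normalization, so its direction differed under that scaling.

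The other junction and polarity genes differed less in their median. Of 98 symbols on 7 lists, 55 were measured, 37 lower and 18 higher, with a median log2 change of -0.04. A negative log2 change was found in 50.8% of all genes tested and in 59.9% of the 1806 with a mean at least that of TJP1. In limma none of the 55 reached an adjusted p of 0.05. At an unadjusted p under 0.05, 5 were lower and 2 higher, where 7.50% and 5.06% of all genes tested were. Exosome libraries lay entirely below the control libraries in 6 of the 55 and entirely above in 2, against 10.4% and 8.29% of all genes. The share below was near the background, and the share above was under it.

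Among the other tight junction membrane proteins, all 4 measured had negative log2 changes (median -0.20), and 2 of the 4 were lower at an unadjusted p under 0.05. MARVELD3, of the same protein family as occludin, had means of 57.0 ± 2.22 and 46.0 ± 8.74 FPKM, a log2 change of -0.32. MARVELD2 (tricellulin), which sits where 3 cells meet, had means of 37.2 ± 3.18 and 31.6 ± 2.84 FPKM (log2 change -0.23). LSR, which brings tricellulin to those corners, had means of 119 ± 4.66 and 106 ± 12.0 FPKM (log2 change -0.17; SD, n = 3 per group in each). In MARVELD3 exosome replicates 1 and 3 were at 41.4 and 40.6 FPKM and replicate 2 at 56.1, inside the control range of 55.1 to 59.4, as in OCLN. Leaving out exosome replicate 2 removes the only exosome value inside that range, and MARVELD3 then passed in limma (log2 change -0.47, adjusted p = 0.0104).

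The other claudins differed little. CLDN6 had means of 239 ± 7.57 and 219 ± 22.3 FPKM, CLDND1, a claudin-domain protein, 191 ± 3.45 and 181 ± 5.15, and CLDN12 34.4 ± 2.00 and 32.3 ± 5.26 (SD, n = 3 per group). Of the 5 measured, 4 were lower and CLDN8 was higher (median log2 change -0.08), with none at an unadjusted p under 0.05. Among the claudin rows matched, CLDN6 came next in level after CLDN4 and the CLDN3 row. The other listed claudins, CLDN1, CLDN2 and CLDN7 among them, were not matched and are not analysed here.

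Plaque and scaffold genes were split, 5 lower and 8 higher of 13, with a median log2 change of 0.04, and 2 lower at an unadjusted p under 0.05. TJP3, a scaffold protein of the plaque, had means of 40.2 ± 1.46 and 35.7 ± 2.02 FPKM (log2 change -0.17) with no overlap. Cingulin (CGN), which links the plaque to myosin, had means of 71.6 ± 0.771 and 65.9 ± 2.97 FPKM (log2 change -0.12), also with no overlap. YBX3, a Y-box protein that binds TJP1, was the most abundant of this list at 254 ± 8.69 and 266 ± 14.0 FPKM (SD, n = 3 per group).

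Polarity genes beside CRB3 were mostly slightly lower, 11 of 14, with a median log2 change of -0.05 and a range from -0.13 to 0.03. PRKCZ, an atypical protein kinase C of the Par complex, had means of 47.9 ± 0.588 and 43.7 ± 2.01 FPKM (log2 change -0.13) and was the 1 member at an unadjusted p under 0.05. PARD6G, an adaptor of that complex, had a log2 change of -0.13. CDC42, the GTPase that switches it on, had means of 435 ± 23.8 and 419 ± 13.6 FPKM, and the polarity kinase STK11 (LKB1) 68.3 ± 2.62 and 66.1 ± 2.19 (SD, n = 3 per group). PALS1, the direct partner of CRB3, chosen after its values were seen, had a log2 change of -0.07.

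Contacts below the tight junction differed in both directions. Among 8 adherens junction genes, 6 were lower and 2 higher (median log2 change -0.04). CTNNA1, CTNNB1 and CTNND1, the catenins that bind cadherins, had log2 changes of -0.10, -0.0039 and -0.14. NECTIN3, an adhesion molecule listed as PVRL3, was the gene with the smallest p of the 55 and was higher, at 77.6 ± 5.32 and 90.8 ± 3.22 FPKM (SD, n = 3 per group; log2 change 0.22, limma adjusted p = 0.270). Of 8 desmosome genes 7 were lower and none reached an unadjusted p under 0.05, with DSP, JUP, PKP1 and PKP2 at log2 changes of -0.01, -0.15, -0.16 and -0.01. All 3 gap junction genes were higher. GJA1 (connexin 43, listed as CONNEXIN) had means of 16.4 ± 0.745 and 20.0 ± 3.09 FPKM (SD, n = 3 per group; log2 change 0.26), and without exosome replicate 2 it passed in limma (0.39, adjusted p = 0.0349). GJC1 and GJB5 had log2 changes of 0.12 and 0.02.

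**Figure D4:**
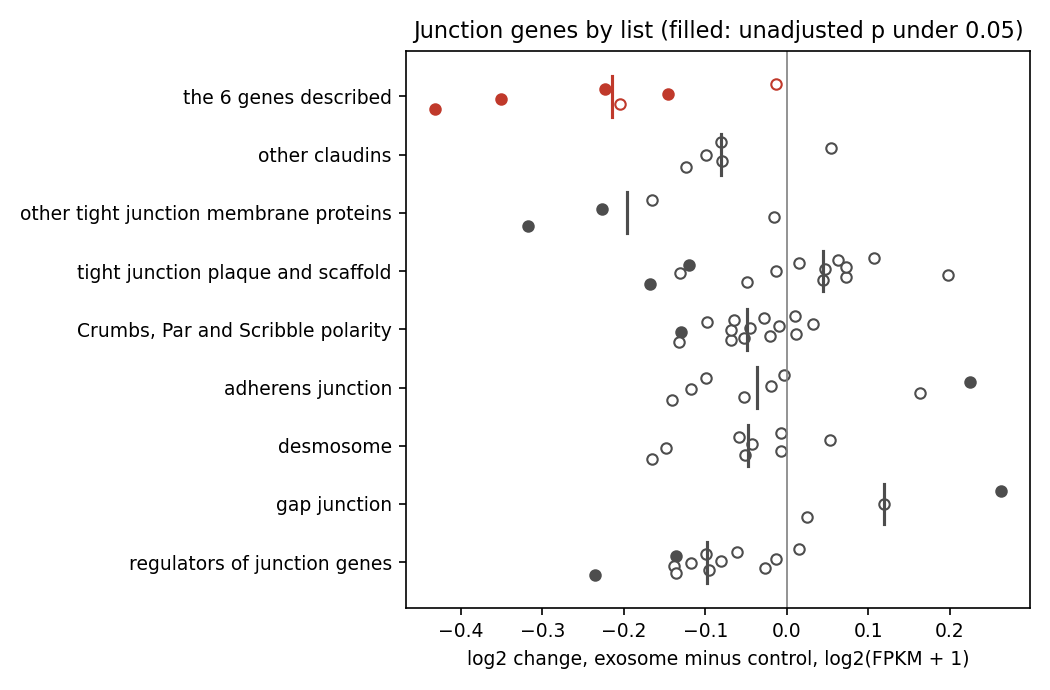
Log2 change on the log2(FPKM + 1) scale (horizontal axis, exosome minus control) of each measured gene, by list (vertical axis, with points spread to be seen). Filled points have an unadjusted p under 0.05, and vertical bars are list medians. The 6 genes described have a median of -0.21, next to -0.20 for the other tight junction membrane proteins and 0.04 for the plaque and scaffold genes.

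Transcription factors and splicing factors known for control of epithelial junction genes were measured in 12 rows, of which 11 were lower (median log2 change -0.10), and 2 of these had an unadjusted p under 0.05. Of all genes tested 50.8% had a negative log2 change and 7.50% were lower at that p, and among the 1806 abundant genes 59.9% and 13.6%. The ETS factor ELF3, known from epithelia, had means of 195 ± 6.18 and 165 ± 9.22 FPKM with no overlap (SD, n = 3 per group; log2 change -0.24, limma adjusted p = 0.234). EHF, of the same family, had means of 139 ± 9.49 and 126 ± 2.84 FPKM (log2 change -0.14). KLF5 appeared in 2 rows under 2 identifiers, with log2 changes of -0.14 and -0.10, so how its reads were divided is uncertain. GRHL2, a grainyhead factor chosen after its values were seen, had a log2 change of -0.08. No row was matched for SNAI1, SNAI2, ZEB1, ZEB2 or TWIST1, the repressors known from loss of epithelial character, which are not analysed here. Without exosome replicate 2, ELF3 passed in limma (log2 change -0.28, adjusted p = 0.0304).

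The genes whose log2(FPKM + 1) followed each of the 6 most closely over the 6 libraries were found by Pearson r. For CLDN4 these were MKRN1 and PLA2G16 (0.996 and 0.995), and LSR (0.96) among the junction and regulator lists. CLDN3 was followed by CHMP3 (0.99) and MAP1LC3A (0.98), with LSR again nearest on the lists (0.94). OCLN was followed by EPAS1 and UBE2Z (both 0.999), with CTNND1 nearest on the lists (0.98). F11R was nearest to PHACTR4 (0.996), to CD24 (0.994) and, on the lists, to MARVELD3 (0.98). TJP1 was nearest to MYO1E (0.997) and ETS1 (0.994), and on the lists to DSP (0.98). CRB3 was nearest to BDH1 (0.998) and PGD (0.993), and on the lists to PRKCZ (0.92). Between 158 genes (CRB3) and 503 genes (OCLN) reached an r of 0.9, so with 6 libraries such likeness is common and is given as a description.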

How the data were processed

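Reads were demultiplexed with bcl2fastq 1.8.4 and processed with TopHat and Cufflinks on Sscrofa11.1, per the submitters' processing notes, and per the labels' protocols the mRNA libraries were stranded. The sources used here give neither the annotation release nor the other versions. No header states a unit, and the authors' deposited numbers were read as FPKM because of the tool named and their range. The table held 10916 rows, 10915 with values, and no exact 0 (lowest value 0.0882). Steps of whole reads were not found (at most 2 of 69 low genes shared 1 ratio of libraries within 0.01%), so no count model was used. Of the identifiers, 68.7% were in the reference gene table.

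Each value was transformed to log2(FPKM + 1). The 10846 genes averaging 1 FPKM or more were tested with limma 3.58.1 in R 4.3.3 (group only, intensity trend, two-sided). Their p-values were adjusted together by Benjamini-Hochberg, with a threshold of 0.05. Fold changes on this scale understate low genes. All 6 members passed the filter. Adjusted p-values are limma's throughout. Figures used Python 3.11.15 and matplotlib 3.10.9.

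The members and lists were chosen with earlier results of these data known. Named genes were the 6 members, the 3 most abundant and the 2 of smallest p in each list, and, for each member, the 2 tested genes with a symbol and the 1 list gene of highest r. EPCAM, COL1A1 and CLDN8 were named outside this rule. Any other measured gene is marked as picked after seeing its values. The separate values of 1 list gene are not reported here. The positions are RefSeq's for each symbol on Sscrofa11.1, the build the notes name. No sequences were used. Tested on simulated data for this comparison (10829 genes, 50 planted at each fold), the fit called 38% at 1.25-fold, 82% at 1.5-fold, 94% at 2-fold and 0.0941% of unchanged genes. The simulated errors were independent between genes, with the same SD in both groups. In the real libraries 66.7% of genes tested had a larger SD in the exosome group, so these rates may not hold there.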

Additional observations from a re-analysis of the deposited data

How the results depend on the processing

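CLDN3, CLDN4, OCLN, F11R and CRB3 had negative log2 changes under all 17 alternatives, and TJP1 did under 13. The 8 settings that kept all libraries (pseudocounts of 0.1 and 5, no filter or a minimum of 5 FPKM, quantile normalization, centring on the median gene, no intensity trend, replicate block) left 0 genes passing in limma, with the log2 change from -0.43 to -0.38 for CLDN3, -0.35 to -0.34 for CLDN4, -0.21 to -0.18 for OCLN, -0.15 to -0.12 for F11R, -0.23 to -0.20 for CRB3 and -0.014 to -0.00081 for TJP1. With the replicate number as a block, CLDN4 was at -0.35 and no gene passed. The block lowered the SE of CLDN3 (0.122 to 0.092), CLDN4 (0.097 to 0.075) and OCLN (0.094 to 0.071), and by less that of TJP1 and F11R. It raised the SE of CRB3 (0.055 to 0.062). Same-numbered libraries had correlations of deviations of 0.161, 0.144 and -0.0701. Each control library went best with the exosome library of its own number, except control replicate 3, which went best with exosome replicate 2 (0.169). So few correlations cannot decide whether same-numbered libraries share more than a number.

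With libraries left out (6 single libraries and 3 numbers in both groups), between 0 and 297 genes passed and between 0 and 3 of the 6. Leaving out exosome replicate 2 gave 297 genes, and leaving out both libraries numbered 2 gave 58. Leaving out control replicate 3, or both libraries numbered 3, gave 1. The ranges of log2 change were -0.56 to -0.29 for CLDN3, -0.45 to -0.24 for CLDN4, -0.32 to -0.13 for OCLN, -0.21 to -0.11 for F11R, -0.29 to -0.18 for CRB3 and -0.107 to 0.0867 for TJP1. TJP1 was positive without control replicate 2 (0.0132), control replicate 3 (0.00384), exosome replicate 3 (0.0695) or both libraries numbered 3 (0.0867). OCLN was at -0.14 without exosome replicate 3. Without exosome replicate 2 the limma adjusted p was 0.0377 for CLDN4, 0.0341 for OCLN and 0.0438 for F11R, and the adjusted p of these 3 ranged up to 0.839 over their alternatives. The cause was not tested. The unknown depth and 3 libraries a group limit what can be seen: the 95% intervals of the 6 log2 changes were 0.25 to 0.56 wide.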
